A study of Homo sapiens with 4 samples.

Results

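Solute carriers are membrane proteins that move amino acids, sugars, ions, metals and other small molecules across the plasma membrane and the membranes of organelles. Their levels were compared in SH-SY5Y cells, a human neuroblastoma line of sympathetic lineage, after origamicin and after solvent. Members were the gene symbols of the array annotation that begin with SLC and a digit or with SLCO. There were 38 of them among 14884 named genes, each with 1 probe set. By RefSeq biotype, 23 encode proteins, 14 are long noncoding RNAs named for a neighbouring carrier gene and 1 is a pseudogene, so the symbol stands for more than carriers. One of the 23, SLC2A4RG, encodes a transcription factor. The noradrenaline transporter SLC6A2, the vesicular amine transporters SLC18A1 and SLC18A2, the cystine and large neutral amino acid carriers SLC7A11, SLC3A2 and SLC7A5, the glucose carriers SLC2A1 and SLC2A3, the lactate carriers SLC16A1 and SLC16A3 and the metal carriers SLC30A1 and SLC39A14 were not analysed here. Most of the 22 carriers analysed are less studied members, many of which were numbered into the family recently and are better known under older symbols.

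The treated cultures received the compound origamicin, which the series title gives as a protein disulfide isomerase inhibitor, at 30 µM for 24 h, and the mock cultures received methanol for 24 h. Each group had 2 Affymetrix Human Gene 2.0 ST arrays, which the labels call biological replicates without naming passages or days. All cultures were of the same line, grown without any genetic change named in the labels, and all values are log2 expression per probe set. Where nothing says that the cultures were separate, p-values measure only the spread between these arrays.

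The cell type label was checked against fixed marker lists. All 18 noradrenergic neuroblastoma markers with a named probe set lay above the level used to leave out dim genes. DBH, which makes noradrenaline, stood at 12.38 and 12.33 on the origamicin arrays and at 12.53 and 12.53 on the mock arrays. It was the brightest of the 18. TH, on the same list, stood at 5.64 and 5.69 on the origamicin arrays and at 5.52 and 5.82 on the mock arrays. The mean over these 18 markers was 9.27 and 9.29 in origamicin cells and 9.47 and 9.50 in mock cells. Over 13 markers of mesenchymal neuroblastoma cells, the other cell type such cultures can hold, the mean was 6.49 and 6.46 in origamicin cells and 6.21 and 6.24 in mock cells. Of the tested genes of these lists, 15 of 18 noradrenergic genes were lower in origamicin cells and 9 of 12 mesenchymal genes were higher. None lay at 0. Over all genes tested, 47.8% were higher. The shift was uneven, with log2 differences from -0.80 to 0.14 over the noradrenergic genes and from -0.45 to 0.83 over the mesenchymal genes. Over 6 glial and Schwann cell markers the mean was 4.66 and 4.76 in origamicin cells and 4.65 and 4.68 in mock cells. Passing the dim level does not tell these cell types apart, since 12 of the 13 mesenchymal and all 6 glial and Schwann markers passed it too. The part of any of this in the values below was not tested, and on bulk RNA fewer cells of a type and less RNA per cell cannot be told apart.

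Of the 38 members, 27 had a mean of at least 3.82, the 40th percentile of all probe sets, and were tested with 11883 genes in all. The 27 comprised all 23 protein-coding members and 4 of the 14 long noncoding RNAs. The 11 members left out as dim had means from 2.23 to 3.79 and differences from -0.37 to 0.37. Against 48.6% of all genes tested, the groups did not overlap for 2 of these 11: the pseudogene SLC25A51P4, at 2.83 and 2.89 in origamicin cells and 2.42 and 2.56 in mock cells, and SLC25A48-AS1, at 2.67 and 2.48 against 3.19 and 2.70 in mock cells.

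No member passed an adjusted p of 0.05 in limma (Benjamini-Hochberg over the 11883 genes), and neither did any other gene, so the background there is 0%. None had an adjusted p under 0.1 either, against 0.446% of all genes. At an unadjusted p under 0.05, 6 of the 27 members were higher in origamicin cells (22.2%), against 7.99% of all genes tested, and 3 were lower (11.1%), against 8.42% of all genes. The 6 were SLC38A12, SLC35F6, SLC66A1, SLC61A1, SLC2A4RG and SLC49A4, and the 3 were SLC25A15, SLC2A1-DT and SLC68A1. The count of 6 depended on single arrays: it was 3 without origamicin replicate 1 or 2 (5.85% and 6.88% of all genes) and 2 without mock replicate 1 (5.34%). The count of 3 was 1 without mock replicate 1 or 2 (5.35% and 5.07% of all genes). With an intensity trend in the variance model, 2 members passed an adjusted p of 0.05 on the higher side, SLC38A12 and SLC35F6, against 2.14% of all genes, and 0 on the lower side, against 2.16%. The 2 origamicin arrays stood wholly above the mock arrays for 11 members (40.7%, against 22.7% of all genes) and wholly below them for 5 (18.5%, against 25.8%). With equal array medians these counts were 11 and 8, and the shares of all genes at that setting were not counted. The family had no common direction: 12 of the 27 members were higher, against 47.8% of all genes, and 15 lower. The median log2 difference was -0.02, and over all genes it was -0.01. The median size of a difference, whatever its sign, was 0.17 for the members and 0.11 for all genes.

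**Figure D1:**
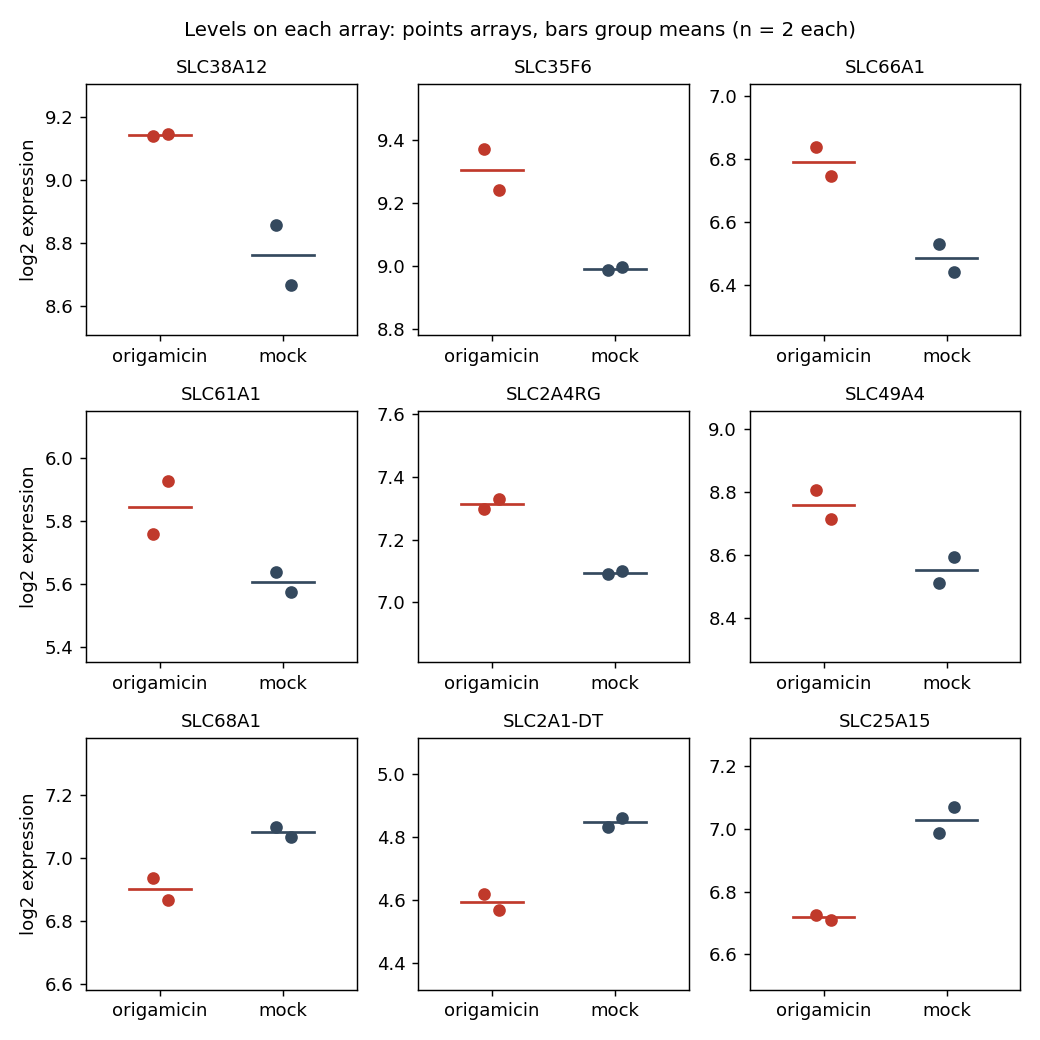
Log2 expression on each array for the 9 members with an unadjusted limma p under 0.05, ordered from the largest positive to the largest negative difference. Points are arrays, bars are group means (n = 2 each), and every panel spans the same height in log2 units. In each panel the 2 origamicin points lie wholly above or wholly below the 2 mock points.

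The promoters of the members with the smallest p are shown here with a motif search, since the carriers among them are little studied and their control regions are the sequence at hand. Of the 5 members with the smallest unadjusted p, 4 have a window in the RefSeq promoter table (GRCh38.p14), 300 bases from 250 before the transcript start to 50 after it. The capitals mark TGANNNNGC on either strand, the pattern searched here as the antioxidant response core. It is looser than the core of NRF2 binding sites, so a marked stretch need not hold that core. The other motifs searched are counted below and are not marked.
SLC38A12 (chr17:74776249-74776548, + strand): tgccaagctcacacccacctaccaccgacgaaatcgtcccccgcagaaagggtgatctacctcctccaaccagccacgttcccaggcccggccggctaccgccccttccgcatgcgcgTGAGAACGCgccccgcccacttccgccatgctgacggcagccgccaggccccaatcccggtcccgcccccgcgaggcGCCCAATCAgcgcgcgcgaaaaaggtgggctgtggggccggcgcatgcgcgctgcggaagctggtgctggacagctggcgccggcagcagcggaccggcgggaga
SLC66A1 (chr1:19312076-19312375, + strand): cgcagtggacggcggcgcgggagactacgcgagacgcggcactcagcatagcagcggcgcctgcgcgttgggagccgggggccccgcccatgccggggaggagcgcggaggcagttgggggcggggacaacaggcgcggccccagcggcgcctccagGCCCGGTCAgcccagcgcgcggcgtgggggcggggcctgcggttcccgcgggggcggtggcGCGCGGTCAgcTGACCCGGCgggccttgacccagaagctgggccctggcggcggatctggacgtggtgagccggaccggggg
SLC25A15 (chr13:40789361-40789660, + strand): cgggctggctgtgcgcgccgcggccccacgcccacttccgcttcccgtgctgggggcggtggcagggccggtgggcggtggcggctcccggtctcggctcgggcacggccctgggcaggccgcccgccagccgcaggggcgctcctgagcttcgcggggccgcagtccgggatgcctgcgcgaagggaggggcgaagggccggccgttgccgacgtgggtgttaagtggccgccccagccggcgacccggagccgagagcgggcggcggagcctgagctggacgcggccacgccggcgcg
SLC2A1-DT (chr1:42958799-42959098, + strand): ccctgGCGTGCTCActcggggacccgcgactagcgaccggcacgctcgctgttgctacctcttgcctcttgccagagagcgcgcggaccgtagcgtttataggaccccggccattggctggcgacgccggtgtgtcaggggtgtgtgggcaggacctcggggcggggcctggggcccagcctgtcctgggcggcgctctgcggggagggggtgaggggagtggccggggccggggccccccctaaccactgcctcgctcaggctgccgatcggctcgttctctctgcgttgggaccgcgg
All 4 windows are rich in G and C, at 71.3% for SLC38A12, 79.0% for SLC66A1, 80.0% for SLC25A15 and 72.3% for SLC2A1-DT. The SLC38A12 window holds 2 matches, whose first bases lie 132 and 55 bases before the start. The SLC66A1 window holds 3, which begin 93, 32 and 21 bases before it. The SLC2A1-DT window holds 1, which begins 245 bases before it, and the SLC25A15 window holds none of these letters. A match is common: 41.8% of 35116 promoter windows of all genes hold one, and 41.9% of the 22199 windows of protein-coding genes. Among the 38 members, dim ones included, 27 had 1 or more windows, and they are not the same 27 that were tested. The motif stood in 21 of their 30 windows (12 of 19 for protein-coding members). Windows of a gene can overlap, as for SLC25A5-AS1, so 1 site can be counted more than once. The hypoxia response core ACGTG stood in 8 of the 30 (21.4% of all windows), the metal response core TGCNCNC in 20 (55.9%) and the amino acid response core TGATGNAAN in 1 (3.6%), each on either strand. Matches of different motifs may overlap, and none is shown to be a site of binding.

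The PQ-loop carriers SLC66A1, SLC66A2 and SLC66A3 gave differences of either sign. SLC66A1, which exports the cationic amino acids lysine and arginine from lysosomes, stood at 6.84 and 6.75 in origamicin cells and at 6.53 and 6.44 in mock cells. Its arrays did not overlap, and the gap between the nearest arrays of the groups, 0.22, was wider than the 0.09 between the arrays of either group. The difference was 0.31 ± 0.07 (SE, n = 2 arrays per group), a 1.24-fold higher level, with a 95% interval of 0.11 to 0.51 and an adjusted p of 0.20 in limma. SLC66A3 stood at 6.37 and 6.24 in origamicin cells and 6.15 and 6.12 in mock cells, a difference of 0.17 ± 0.08 (limma adjusted p = 0.37) that was 0.10 without origamicin replicate 1. SLC66A2 stood lower in origamicin cells, at 6.63 and 6.59, against 6.76 and 6.77 in mock cells, a difference of -0.15 ± 0.06 (limma adjusted p = 0.34). For each of the 3 the groups did not overlap, as for 48.6% of all genes. The contrast in sign between SLC66A1 and SLC66A2 was not tested.

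SLC38A12 had the largest positive difference among the members. It is numbered with the sodium-coupled neutral amino acid transporters, and its older symbol is TMEM104. It stood at 9.14 and 9.15 in origamicin cells and at 8.86 and 8.67 in mock cells. The origamicin arrays lay within 0.01 of each other, the mock arrays lay 0.19 apart, and the nearest arrays of the groups were 0.28 apart. The difference was 0.38 ± 0.09 (SE), a 1.30-fold higher level, with a 95% interval of 0.15 to 0.62. Its adjusted p was 0.19 in limma and 0.030 with an intensity trend. It ranked 326 from the top among the 11883 genes by signed difference.

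The SLC35 members belong to a family of nucleotide sugar transporters of the ER and Golgi and their relatives. SLC35F6 carries the older symbol ANT2BP, given for binding to a mitochondrial adenine nucleotide carrier. It stood at 9.37 and 9.24 in origamicin cells and at 8.985 and 8.995 in mock cells. The groups did not overlap, and the mock arrays lay 0.01 apart against 0.13 for the origamicin arrays. The difference was 0.32 ± 0.08 (SE), a 1.24-fold higher level, with a 95% interval of 0.11 to 0.52, a limma adjusted p of 0.19 and an adjusted p of 0.031 with an intensity trend. SLC35D4, known earlier as TMEM241, stood at 7.96 and 7.95 in origamicin cells and 7.58 and 7.87 in mock cells. Its difference of 0.23 ± 0.11 (limma adjusted p = 0.40) was 0.09 without mock replicate 1, the lower of the mock arrays.

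The major facilitator carriers formed the largest structural group, 11 members with a common fold of transmembrane helices and, for many, no settled substrate. Of these, 4 were higher and 7 lower in origamicin cells, and the median difference was -0.04, against -0.01 for all genes. At an unadjusted p under 0.05 there were 2 on the higher side (7.99% of all genes) and 1 on the lower side (8.42%). The groups did not overlap for 45.5% of the 11, near the 48.6% over all genes. SLC49A4, a lysosomal membrane protein earlier named DIRC2, stood at 8.81 and 8.71 in origamicin cells and 8.51 and 8.59 in mock cells, a difference of 0.21 ± 0.07 (limma adjusted p = 0.29). SLC61A1, known for molybdate transport under the symbol MFSD5, stood at 5.76 and 5.93 in origamicin cells and 5.64 and 5.57 in mock cells, a difference of 0.24 ± 0.09 (limma adjusted p = 0.29) that was 0.15 without origamicin replicate 2. In both genes the groups did not overlap, with 0.12 between the nearest arrays.

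SLC68A1, earlier MFSD13A, was the major facilitator with the largest negative difference. It stood at 6.94 and 6.87 in origamicin cells and at 7.10 and 7.07 in mock cells, without overlap. The difference was -0.18 ± 0.07 (SE; limma adjusted p = 0.30). SLC49A3, the other SLC49 member, stood at 5.89 and 5.93 in origamicin cells and at 5.45 and 5.83 in mock cells. Its difference of 0.27 ± 0.14 (limma adjusted p = 0.43) was 0.08 without mock replicate 1, since its mock arrays lay 0.38 apart. SLC60A1 stood at 5.62 and 5.50 in origamicin cells and 5.38 and 5.43 in mock cells, a difference of 0.15 ± 0.08 (limma adjusted p = 0.41) that was 0.09 without origamicin replicate 1, while its antisense RNA SLC60A1-AS1 was dim on every array. Its relative SLC60A2, described in rat as a sodium-dependent glucose transporter, had a difference of -0.05 ± 0.07, and 1 array of each group read the same value, 8.23.

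The other 5 major facilitators gave small differences with intervals that include 0. SLC71A1 and SLC71A2 had older names as hippocampus abundant transcripts. SLC71A1 stood at 9.90 and 9.90 in origamicin cells and 9.90 and 9.98 in mock cells, a difference of -0.04 with a 95% interval of -0.22 to 0.14. SLC71A2 had a difference of -0.07 (interval -0.29 to 0.16). SLC75A1, an organic anion transporter also named MFSD10, had a difference of -0.02, and its interval of -0.32 to 0.27 holds changes as large as that of SLC49A4 in either direction. SLC67A2 (-0.08, interval -0.33 to 0.17) and SLC33A2 (-0.12, interval -0.44 to 0.20), a relative of the acetyl-CoA transporter of the ER, completed the group.

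**Figure D2:**
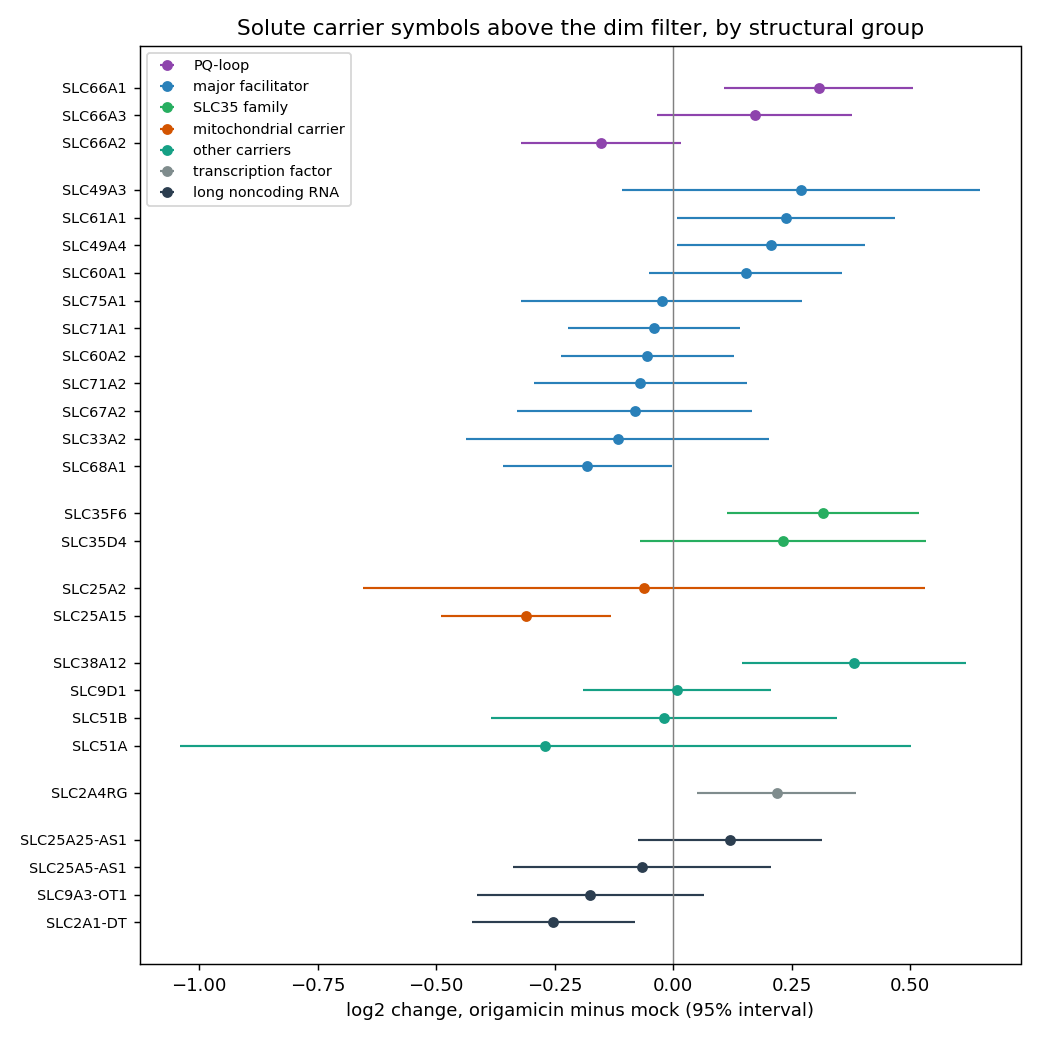
Log2 difference, origamicin minus mock, for the 27 members above the dim filter, grouped by structure or kind of gene. Points are the limma estimates from 2 arrays per group and bars are their 95% intervals. The intervals of 9 members lie wholly on 1 side of 0, and SLC51A and SLC25A2 have the widest ones.

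Of the 2 mitochondrial ornithine carriers, SLC25A15 gave the largest negative difference among the members tested. SLC25A15 exchanges ornithine for citrulline across the inner mitochondrial membrane, a step of the urea cycle, and its loss causes the hyperornithinemia, hyperammonemia and homocitrullinuria syndrome. It stood at 6.73 and 6.71 in origamicin cells and at 6.99 and 7.07 in mock cells, and the groups lay 0.26 apart at their nearest arrays. The difference was -0.31 ± 0.07 (SE), a 1.24-fold lower level, with a 95% interval of -0.49 to -0.13. Its limma adjusted p was 0.18, and 0.073 with an intensity trend. SLC25A2, a related carrier of ornithine and other basic amino acids, stood at 4.72 and 5.28 in origamicin cells and 5.21 and 4.91 in mock cells. Its groups overlapped, and its difference of -0.06 ± 0.22 leaves an interval of -0.65 to 0.53, too wide to set beside SLC25A15. The sequences of the 2 genes are alike, so the values are uncertain to the extent that probes share targets.

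The other carriers stood close to 0 or varied widely between arrays. SLC51A and SLC51B encode the subunits of a bile acid and steroid transporter of the gut, which works only when both are made. SLC51A stood at 4.60 and 3.86 in origamicin cells and 4.70 and 4.29 in mock cells, a difference of -0.27 ± 0.29 with the widest interval of the members (-1.04 to 0.50). SLC51B stood at 4.93 and 4.57 in origamicin cells and 4.74 and 4.80 in mock cells, a difference of -0.02 ± 0.14. Neither differed beyond the spread between arrays. SLC9D1, which resembles cation and proton exchangers and was named TMCO3, stood at 8.37 and 8.37 in origamicin cells and 8.30 and 8.42 in mock cells. Its difference was 0.01 with an interval of -0.19 to 0.21, and it took the other sign, at -0.01, with equal array medians.

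SLC2A4RG is not a carrier but a transcription factor that binds the promoter of the insulin-responsive glucose transporter gene. It stood at 7.30 and 7.33 in origamicin cells and at 7.09 and 7.10 in mock cells. The arrays of each group lay within 0.03, and the groups were 0.20 apart. The difference was 0.22 ± 0.06 (SE), with a 95% interval of 0.05 to 0.39 and a limma adjusted p of 0.23.

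Of the 4 long noncoding RNAs tested, 1 was higher and 3 lower in origamicin cells, with a median of -0.12. SLC2A1-DT is transcribed away from the gene of the glucose transporter GLUT1, which was not analysed here. It stood at 4.62 and 4.57 in origamicin cells and at 4.83 and 4.86 in mock cells, a difference of -0.25 ± 0.06 (SE; limma adjusted p = 0.21). Its groups did not overlap. With an intensity trend its SE was 0.13 and its adjusted p 0.35. SLC9A3-OT1 stood at 6.90 and 7.09 in origamicin cells and 7.15 and 7.18 in mock cells (-0.18 ± 0.09, limma adjusted p = 0.42), and its difference was -0.08 without origamicin replicate 1. SLC25A25-AS1 stood at 5.50 and 5.42 in origamicin cells and 5.30 and 5.38 in mock cells (0.12 ± 0.07, limma adjusted p = 0.48), and its difference was 0.08 without mock replicate 1. SLC25A5-AS1, antisense to a gene of an ADP/ATP carrier, had a difference of -0.07 ± 0.10.

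**Figure D3:**
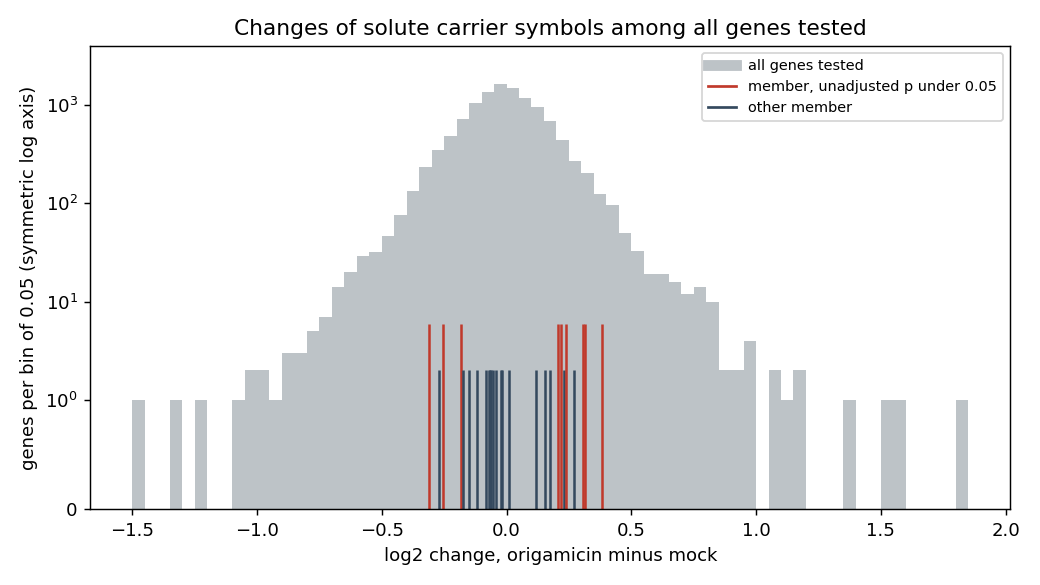
Grey bars count all 11883 genes tested by log2 difference, origamicin minus mock, on a symmetric log axis. Tall red lines mark the 9 members with an unadjusted limma p under 0.05 and short dark lines the other 18; line height has no value. The members tested lie between -0.31 and 0.38, inside the range of all genes, -1.47 to 1.83.

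Genes that work with carriers were read from 3 further lists. Among pump subunits, carrier chaperones and kinases that control ion carriers, 14 of 25 genes were tested, 6 higher and 8 lower, with a median of -0.05. Unadjusted p was under 0.05 for 2 higher genes (7.99% of all genes) and 1 lower gene (8.42%). CHP1, a cofactor of sodium and proton exchangers, stood at 5.53 and 5.55 in origamicin cells and 5.26 and 5.21 in mock cells (0.31 ± 0.06, limma adjusted p = 0.18). NPTN, a membrane partner of lactate carriers, stood at 8.62 and 8.58 in origamicin cells and 8.34 and 8.24 in mock cells (0.31 ± 0.07, limma adjusted p = 0.19), and passed with an intensity trend (adjusted p = 0.037). OXSR1, a kinase that activates sodium-coupled chloride carriers, stood at 8.89 and 8.85 in origamicin cells and 9.17 and 9.12 in mock cells (-0.28 ± 0.07, limma adjusted p = 0.19), and passed with an intensity trend (adjusted p = 0.028). OXSR1 was named after its values were seen.

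Among carriers listed under other symbols, 26 of 40 were tested, 18 higher and 8 lower, with a median of 0.06. Unadjusted p was under 0.05 for 5 on the higher side (7.99% of all genes) and 1 on the lower side (8.42%). MFSD9 and MFSD10, counted in the 40 as not tested, are older symbols of SLC67A2 and SLC75A1, which were tested as members above. SFXN3, a mitochondrial sideroflexin, stood at 7.75 and 7.76 in origamicin cells and 8.23 and 8.15 in mock cells. Its difference of -0.43 ± 0.07 (limma adjusted p = 0.16) was larger than that of any solute carrier symbol tested, and it passed with an intensity trend (adjusted p = 0.015). SV2C, a synaptic vesicle glycoprotein, stood at 9.63 and 9.64 in origamicin cells and 9.39 and 9.35 in mock cells (0.26 ± 0.06, limma adjusted p = 0.20, and 0.027 with an intensity trend). Of the metal homeostasis genes, 9 of 22 were tested, 4 higher and 5 lower, with a median of -0.03. HMOX1, which degrades heme and releases its iron, stood at 5.71 and 5.88 in origamicin cells and 5.06 and 5.47 in mock cells (0.53 ± 0.16, limma adjusted p = 0.25). MT1X, a metallothionein that binds zinc, stood at 8.20 and 8.03 in origamicin cells and 8.35 and 8.47 in mock cells (-0.30 ± 0.09, limma adjusted p = 0.25).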

How the data were processed

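RNA of 4 SH-SY5Y cultures was read on 1 array each. The log2 values per probe set were analysed as the authors deposited them. Per the submitters' processing notes, RMA and limma were used (no versions listed). The build is not given in the sources used here. Values ran from 0.574 to 14.5, with array medians from 4.37 to 4.42, and were not normalized again. RMA summarises many probes into 1 value and can compress large changes. Arrays have no counting depth, so their number limits the precision.

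The platform annotation gave 1 gene for 16098 of 53617 probe sets, 14884 genes in all. The other 37519 probe sets, given no gene or more than 1, are not assigned to a gene here. All 38 member symbols were current in RefSeq. For a gene with several probe sets the brightest was kept. Genes with a mean under the 40th percentile were left out. limma 3.58.1 (R 4.3.3; lmFit, eBayes) compared origamicin with mock, in a two-sided test on all 4 arrays, unadjusted for covariates, and p-values were adjusted over 11883 genes. Errors after ± are moderated SEs. The method was tested on simulated data with changes far larger than those of the members, so that test does not cover differences of their size.

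The members and lists were chosen with earlier results of these data known. The naming rule took the 10 tested members with the smallest p on each side and 2 per class of substrate. It also took those passing with an intensity trend and 12 set carriers, none of which had a probe set named for it alone. This named 23 of the 27 tested members. SLC25A2, SLC25A5-AS1, SLC71A1 and SLC75A1 are described besides, and their single values were not followed through the alternatives. From each other list the rule took the 2 genes with the smallest p, but cell type marker lists are given as means, counts and ranges. The grouping by structure, the promoters printed, DBH, TH and OXSR1 were chosen after values were seen. Same-numbered arrays did not deviate together (correlation -0.02 over genes), so the main comparison was unpaired. Alternatives were a replicate block, 2 other filters, 2 normalizations, averaging the probe sets of a gene, 2 variance models, leaving out each array and 2 other thresholds.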

Additional observations from a re-analysis of the deposited data

How the results depend on the processing

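The labels give same-numbered arrays no link beyond the number, and whether they shared a passage or day is not known. With the replicate block, 4 members were higher (6.98% of all genes) and 2 lower (7.48%) at an unadjusted p under 0.05. Without it there were 6 and 3. With it, 0 passed the adjusted threshold, 11 and 5 did not overlap and the median was -0.02. No member passed the adjusted threshold under any alternative except the intensity trend, with 2; over all genes tested, 511 passed with that trend and 92 with the 60th percentile filter. At an unadjusted p under 0.01 there was 1 member on each side, and the share of all genes there was not counted. Leaving out 1 array gave 2 to 4 members higher and 1 to 3 lower at an unadjusted p under 0.05. It gave 11 to 13 higher and 6 to 13 lower members without overlap, as fewer arrays overlap less often, and a median of -0.043 to 0.098. With equal array medians, 8 lower members did not overlap. The shares of all genes without overlap were not counted under these alternatives, so these counts have no background. The median was 0.0083 with the 60th percentile filter, which leaves 23 members. Of the 23 named members, SLC38A12 and SLC35F6 passed with the trend. The sign turned when 1 array was left out for SLC51A (-0.638 to 0.098), SLC51B (-0.199 to 0.160), SLC67A2 (-0.173 to 0.011), SLC71A2 (-0.150 to 0.012) and SLC9D1 (-0.054 to 0.071). SLC9D1 also turned, to -0.0079, with equal array medians. The causes were not tested. The other 264 values of named members kept their direction and side of the threshold.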
